A study of Mus musculus with 9 samples.

Results

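The small-molecule mixture labelled F/R/C was compared with its absence in mouse embryonic fibroblasts (MEFs) that also received MyoD. The comparison takes 6 of the 9 RNA-seq libraries of the study: the 3 titled MyoD with F/R/C against the 3 titled MyoD alone. All 9 libraries, including 3 of untreated MEFs that serve here as a reference, carry the Dmdmdx genotype, a mutation of the dystrophin gene, and the labels give their source as embryonal tissue. The design text describes conversion of these fibroblasts towards myogenic progenitors by MyoD overexpression together with the mixture. The labels give neither the duration, the doses, the vector and promoter that drive MyoD nor the number of embryos behind a library, and they do not say that libraries of a group are separate cultures. The p-values below therefore measure only the spread between these libraries, which may be technical.

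MyoD, encoded by Myod1, is a basic helix-loop-helix transcription factor that binds E-box motifs and can turn fibroblasts towards skeletal muscle. In the embryo and in regenerating muscle, progenitors marked by Pax7 and Myf5 pass through a proliferating myoblast stage, leave the cell cycle with the help of cyclin-dependent kinase inhibitors, switch on Myog and fuse into contractile fibres. The labels do not spell out the letters F/R/C. A published mixture with these initials joins forskolin, which raises cyclic AMP, RepSox, which blocks a TGF-beta receptor kinase, and a GSK3 inhibitor that stabilises beta-catenin, and target genes of these 3 pathways were therefore among the lists examined.

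Estimated counts per library ranged from 21112071 to 24291056, a range that was much narrower than most changes below. Levels of genes are given as CPM, counts relative to the library size after TMM scaling. A multidimensional scaling used the 500 genes that differed most in each pair of libraries. Its first axis held 66.1% of the variance, and the F/R/C libraries lay at 3.53 to 3.96 against -1.52, -1.15 and 0.46 for the MyoD libraries. MyoD replicate 3 lay nearest to the F/R/C libraries, and untreated MEF replicate 3 already held muscle transcripts: Myog, the differentiation factor downstream of MyoD, was at 0.0930, 0.121 and 19.1 CPM in the untreated MEFs. Counts that rest on these libraries are also given without them. Mitochondrially encoded transcripts took 1.18% ± 0.0372 (SD, n = 3) of counts with MyoD and 2.42% ± 0.790 with F/R/C. In bulk RNA, fewer cells of a type and less RNA per cell cannot be told apart.

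Myod1 itself was higher with the mixture. Its level was 7.21, 9.03 and 18.95 CPM in the MyoD libraries and 269, 281 and 330.1 CPM in the F/R/C libraries, against 2.60, 0.403 and 5.998 CPM in untreated MEFs. Every F/R/C library was thus over 10 times above the highest MyoD library, and the MyoD libraries overlapped no F/R/C library. The estimated counts behind these levels were 161, 239 and 394 with MyoD and 6412, 6163 and 6874 with F/R/C. The log2 fold change was 4.65 ± 0.81 (SE; adjusted p = 0.00398 by edgeR's quasi-likelihood test with Benjamini-Hochberg adjustment, the test behind every adjusted p for a gene below). Myod1 lies at chr7:46376474-46379099 of GRCm38. Reads of the chromosomal gene and of the delivered MyoD cannot be told apart in these gene-level counts, and the part of the higher Myod1 level in the other differences was not tested.

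The other 4 genes chosen as markers of the mixture rose as well. Heyl, a transcriptional repressor induced by Notch, was at 0.0448, 0.113 and 0.481 CPM with MyoD and 38.3, 22.7 and 36.6 CPM with F/R/C. Fgfr4, the fibroblast growth factor receptor of muscle progenitors, stood at 0.179, 0.340 and 1.35 CPM with MyoD and 101, 85.5 and 78.2 CPM with F/R/C. Both genes were near the detection floor in the MyoD libraries, where 3 counts correspond to 0.113 to 0.144 CPM, and only MyoD replicate 3 was clearly above it for both. Cdkn1c, an imprinted inhibitor of cyclin-dependent kinases, went from 9.35, 23.8 and 15.7 CPM to 1111, 902 and 1323 CPM. H19, an imprinted non-coding RNA abundant in embryonic muscle, went from 3353, 3331 and 2312 CPM to 18239, 24636 and 27390.1 CPM, the largest share of counts of any gene in the F/R/C libraries. The log2 fold changes were 7.26 ± 1.23 for Heyl, 7.16 ± 1.15 for Fgfr4, 6.09 ± 0.64 for Cdkn1c and 2.97 ± 0.35 for H19, with adjusted p of 0.00359, 0.00297, 0.000703 and 0.00103. None of the 4 genes had overlapping groups, and each kept its call without any 1 of the 9 libraries.

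**Figure D1:**
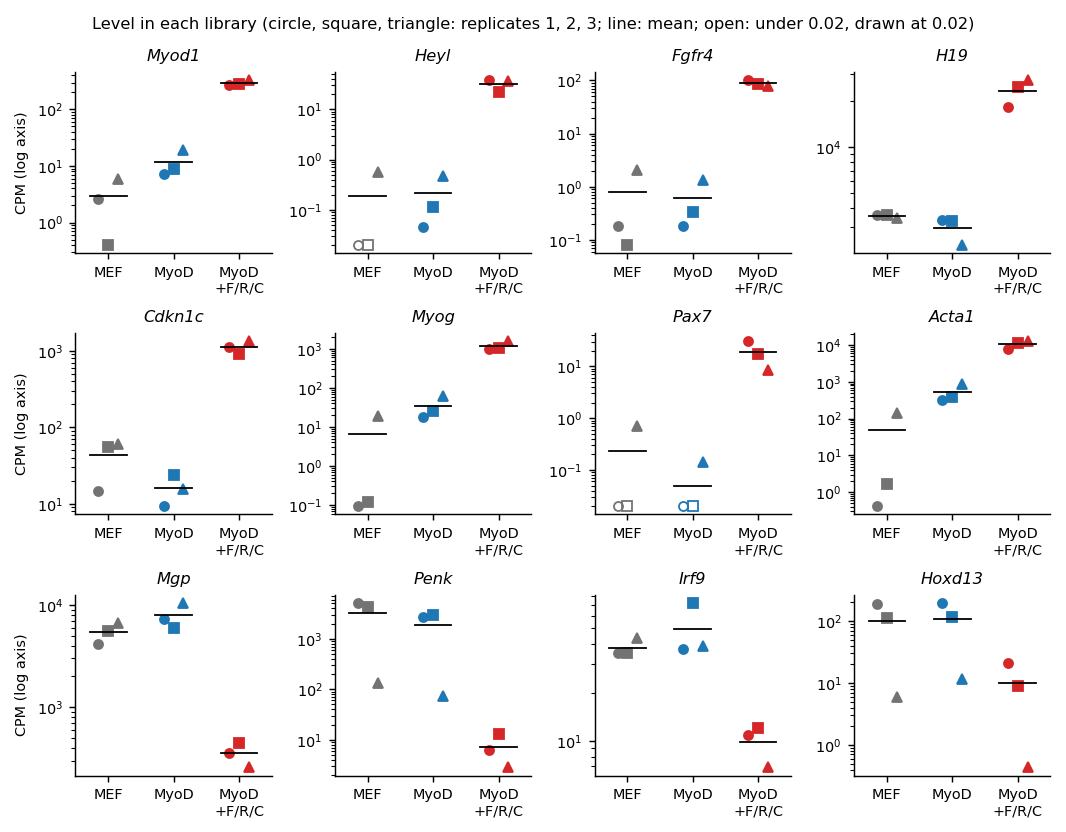
Levels of 12 genes in CPM (vertical log axis, a separate scale for each gene) in each of the 3 untreated MEF libraries (grey), the 3 MyoD libraries (blue) and the 3 F/R/C libraries (red). Symbols mark replicate numbers, lines the group means, and open symbols values under 0.02 CPM drawn at 0.02. For Myod1, Heyl, Fgfr4, H19, Cdkn1c, Myog, Pax7 and Acta1 every F/R/C library lies above every MyoD library, for Mgp, Penk and Irf9 every one lies below, and for Hoxd13 the groups overlap.

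Across the genome a large part of the transcriptome differed between F/R/C and MyoD alone, in both directions. Of 15714 genes tested, 5327 (33.9%) were called at an adjusted p under 0.05: 2796 (17.8%) were higher with F/R/C and 2531 (16.1%) were lower. These shares are the background against which counts of list members are to be read. No overlap between the groups was seen for 49.8% of genes tested, with the F/R/C libraries higher for 26.6% and lower for 23.2%. Among the genes called, 5267 had no overlap and 60 overlapped, so a lack of overlap adds little to a call. The median log2 fold change was 1.80 among genes called higher, -1.58 among genes called lower and -0.02 over all genes tested. A change of at least 8-fold was called for 835 genes higher and 418 lower, and one of at least 32-fold for 208 higher and 81 lower. With the total count as the only scaling, 2295 genes were higher and 3119 lower, so that 42.4% of calls were rises against 52.5% with TMM, and the median of all genes moved by -0.19. Without MyoD replicate 2 the count of rises was 1778, and without MEF replicate 3 and MyoD replicate 3 together the counts were 3119 higher and 2777 lower.

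Long intergenic non-coding RNAs were called higher more often than lower. Of 456 tested, 23.9% rose and 9.21% fell, against 17.98% and 16.76% of 14243 protein-coding genes. Other non-coding classes were nearer to balance, with 46 rises and 39 falls among 344 antisense RNAs, 34 and 30 among 251 processed transcripts and 7 and 7 among 68 bidirectional promoter RNAs. The highest fitted log2 fold change of any gene called belonged to one of these, Gm27000, named here after its values were seen, at chrX:88759471-88760312. It had 0 counts in every MyoD library and 2665, 509 and 229 with F/R/C, a more than 10-fold spread among the libraries that held it.

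**Figure D2:**
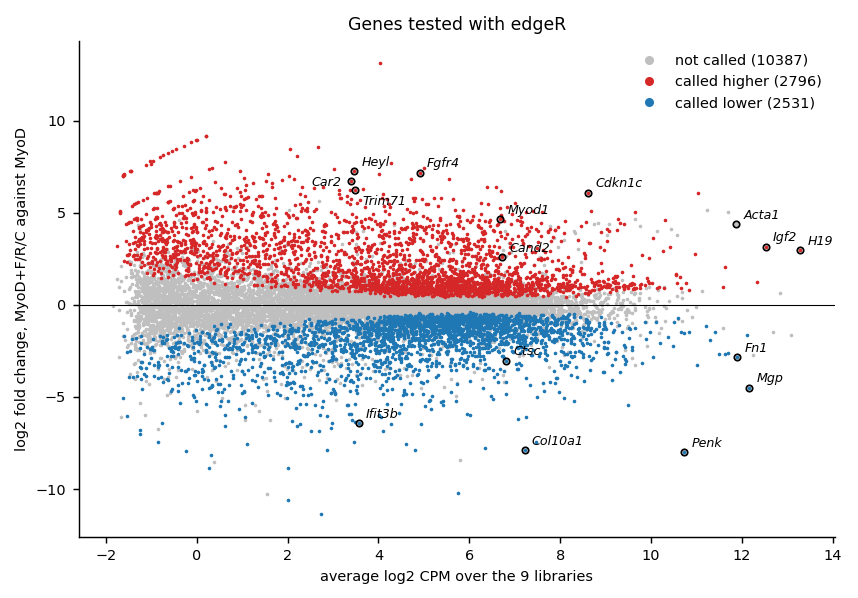
Log2 fold change with F/R/C against MyoD (vertical axis) by average log2 CPM over the 9 libraries (horizontal axis) for the 15714 genes tested, 1 dot a gene. Red dots are the 2796 genes called higher, blue dots the 2531 called lower and grey dots the rest, and circles mark genes named in the text. H19, Igf2 and Cdkn1c stand out among abundant genes that rose, Penk, Mgp and Fn1 among those that fell, and Acta1 has a high value but is grey.

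Among the 12 largest rises of well-expressed genes were 2 imprinted genes and several muscle genes. Car2, a carbonic anhydrase, was at 0.179, 0.113 and 0.577 CPM with MyoD and 22.4, 27.4 and 41.5 CPM with F/R/C. Smtnl2, a smoothelin-like muscle protein, went from 1.79, 2.04 and 6.45 CPM to 184, 364 and 301 CPM. Trim71, an RNA-binding regulator of early development and a target of let-7 microRNAs, went from 0, 0.529 and 0.770 CPM to 39.2, 33.5 and 25.7 CPM. The imprinted genes were Rtl1, a retrotransposon-derived gene needed in placenta and muscle, at 50.4 to 104 CPM with F/R/C, and Magel2 at 11.3 to 53.4 CPM. Galnt6, a glycosyltransferase, Fitm1, a lipid droplet protein of muscle, Traf3ip3 and Sept4, a septin, were also among the 12, together with Heyl, Fgfr4 and Pnoc, which encodes prepronociceptin. Pnoc differed widely among the F/R/C libraries, at 3.48, 246 and 28.7 CPM, and lost its call without MyoD replicates 1 or 2 or F/R/C replicates 2 or 3. Galnt6 lost its call without MyoD replicate 1 or 2.

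The largest falls included secreted proteins of connective tissue and bone. Penk, which encodes proenkephalin, was at 2651, 2928 and 73.4 CPM with MyoD and 6.17, 12.9 and 2.83 CPM with F/R/C. MyoD replicate 3 was far below the other 2 MyoD libraries, as MEF replicate 3 was among untreated MEFs (5169.6, 4318 and 133 CPM), yet it was still above every F/R/C library. Col10a1, a collagen of hypertrophic cartilage, went from 279, 24.9 and 882 CPM to 4.03, 0.456 and 0.480 CPM, and Adamtsl3, a matrix protein, from 408, 277 and 14.8 CPM to 1.43, 2.28 and 0.240 CPM. Gpr149, an orphan receptor, went from 29.4, 27.5 and 13.8 CPM to 0.168, 0.0912 and 0.336 CPM. Sostdc1, an extracellular antagonist of BMP and Wnt signals, was at 8.24, 97.0 and 14.8 CPM with MyoD and was called lower (adjusted p = 0.0265), but lost the call without MyoD replicate 2 or any 1 F/R/C library. Galnt9, a glycosyltransferase, and the glutamate receptor subunit Grin3a were lowest in MyoD replicate 3, at 111, 216 and 0.914 CPM and 122, 23.8 and 7.31 CPM with MyoD against 0.288 to 0.775 CPM and 0.228 to 0.923 CPM with F/R/C. Ptchd1 likewise went from 36.9, 12.5 and 1.59 CPM to 0 to 0.420 CPM, whereas Elobl was highest in replicate 3, at 2.60, 1.17 and 37.8 CPM with MyoD and 0.0420 to 0.137 CPM with F/R/C. Trbc2, a constant segment of the T cell receptor, went from 8.10, 24.2 and 31.1 CPM to 0.0420 to 0.593 CPM. Of these 5 Trbc2 kept its call without any 1 of the 9 libraries, Galnt9 and Elobl lost theirs without any 1 F/R/C library, and Grin3a and Ptchd1 lost theirs without F/R/C replicate 2 or 3. Galnt9 also lost it without MyoD replicate 2 and Elobl without MyoD replicate 3. Akr1c18, a steroid dehydrogenase, and Ifit3b, an interferon-induced gene, were also in this set, with log2 fold changes of -7.54 ± 1.66 and -6.42 ± 1.09.

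The smallest p-values belonged to genes whose libraries agreed closely within each group. Cand2, a regulator of cullin ubiquitin ligases found in muscle, was at 39.4, 39.0 and 40.2 CPM with MyoD and 260.4, 226 and 224 CPM with F/R/C. Foxo4, a forkhead factor restrained by insulin signalling, was at 17.8, 18.6 and 24.1 CPM with MyoD and 133, 128 and 154 CPM with F/R/C. Bnip3, a mitophagy receptor induced by FOXO factors and hypoxia, went from 39.5, 33.5 and 38.8 CPM to 216, 247 and 234 CPM. Arhgap28, a RhoA regulator, and Fgf11, an intracellular fibroblast growth factor homologue, rose with log2 fold changes of 2.81 ± 0.18 and 3.94 ± 0.27. In the other direction, Ctsc, the lysosomal protease cathepsin C, was at 184, 149 and 168 CPM with MyoD and 21.1, 24.02 and 16.4 CPM with F/R/C. Pdgfd, a growth factor for mesenchymal cells, went from 105, 125 and 129.5 CPM to 12.1, 10.1 and 8.93 CPM. Emp3, Npdc1 and the adhesion receptor Adgrg2 fell with log2 fold changes of -2.09 ± 0.15, -2.29 ± 0.17 and -4.95 ± 0.37. The adjusted p was 0.000286 for all 10 genes. Levels in untreated MEFs were 36.6, 39.6 and 42.1 CPM for Cand2, 146, 172 and 128 CPM for Ctsc and 1.76 ± 0.475 CPM (SD, n = 3) for Fgf11, the last against 3.34 ± 0.361 CPM with MyoD.

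By mean CPM over the 3 libraries, Mgp was the highest gene with MyoD. Mgp encodes matrix Gla protein, an inhibitor of calcification, and stood at 7323, 5935 and 10509 CPM with MyoD and 354, 447 and 257 CPM with F/R/C (log2 fold change -4.49 ± 0.41, adjusted p = 0.000513). Among the genes named here, the collagens Col3a1 and Col1a1 and the bone marker Spp1 were above it in MyoD replicate 1. In MyoD replicate 3 the matrix proteins Thbs1, thrombospondin, and Fn1 were above it. Col3a1 was at 17428, 4014 and 1046 CPM with MyoD and 3485, 1888 and 1799 CPM with F/R/C, and Thbs1 at 1308, 1162 and 15703 CPM and 903, 1433 and 395 CPM, and neither passed the test (adjusted p = 0.230 and 0.105). In the F/R/C libraries H19 was followed by its imprinted neighbour Igf2, a fetal growth factor, at 13736, 14147 and 14718 CPM against 1584, 2123 and 1106 CPM with MyoD (log2 fold change 3.15 ± 0.44, adjusted p = 0.00183). Acta1, skeletal muscle actin, and Myh3, embryonic myosin heavy chain, were also among the 5 highest means with F/R/C, together with Eef1a1, a translation elongation factor, whose 6307, 5503 and 7169 CPM with MyoD and 8258, 9518 and 11654 CPM with F/R/C did not pass (adjusted p = 0.131). Acta1 stood at 324, 377 and 856 CPM with MyoD and 8008, 11502 and 12529.6 CPM with F/R/C, and Myh3 at 117, 159 and 594 CPM and 9376, 8028 and 11168 CPM. Neither Acta1 nor Myh3 passed the test, with log2 fold changes of 4.36 ± 1.74 and 5.04 ± 1.88 and adjusted p of 0.0824 and 0.0675. With the replicate number as a block both passed (adjusted p = 0.0400 for Acta1 and 0.0214 for Myh3), and without MEF replicate 3, where Acta1 was at 0.419, 1.65 and 143 CPM across the 3 untreated libraries, they passed as well (adjusted p = 0.00180 and 0.00171).

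Several regulators of the muscle lineage were higher with the mixture. Of 19 early muscle regulators tested, 8 rose and 1 fell, with a median log2 fold change of 0.48, which was 1.01 with the replicate block, 0.26 with the total count as the only scaling and 0.18 without F/R/C replicate 1. Pax7, which marks muscle stem cells and embryonic progenitors, had 0, 0 and 3 counts in the MyoD libraries and 723, 374 and 174 with F/R/C, or 30.3, 17.0 and 8.35 CPM (adjusted p = 0.00591). Myf5, the earliest of the MyoD family in the embryo, had 0, 0 and 2 counts with MyoD and 62, 83 and 91 counts with F/R/C (adjusted p = 0.00821). Myog went from 18.4, 25.6 and 61.3 CPM to 962, 1028 and 1544 CPM (log2 fold change 5.07 ± 1.65, adjusted p = 0.0427); Myf5 and Myog were named as cell type markers rather than by p. The groups did not overlap for Pax7, Myf5 or Myog, but the call of Myog was lost without any 1 of the 6 MyoD or F/R/C libraries, with adjusted p up to 0.129 without MyoD replicate 2. Mef2c, a MADS-box partner of the MyoD family, went from 64.0, 63.9 and 175 CPM to 980.4, 1054 and 1116 CPM, and Mef2d from 119, 132 and 185 CPM to 363, 538 and 301 CPM. The member that fell was Eya1, a phosphatase and cofactor of homeobox proteins, at 63.2, 49.5 and 15.1 CPM with MyoD and 15.8, 9.16 and 4.85 CPM with F/R/C (adjusted p = 0.0308), where MyoD replicate 3 (1413, 1312 and 313 counts in the MyoD libraries) overlapped the F/R/C range and the call was lost without MyoD replicate 1 or 2 or F/R/C replicate 2 or 3.

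Among genes of satellite cells and muscle progenitors, calls were mainly rises. Of 24 tested, 11 rose and 2 fell, and the median log2 fold change was 2.96. Sox8, a factor found in satellite cells, was at 0.0448, 0.0378 and 0.192 CPM with MyoD and 11.8, 5.01 and 10.2 CPM with F/R/C. Megf10, an adhesion receptor of satellite cells, went from 15.3, 16.5 and 16.0 CPM to 158, 92.9 and 127 CPM, and Peg3, an imprinted zinc-finger gene expressed in muscle progenitors, from 40.0, 90.6 and 92.0 CPM to 1043, 878 and 619.6 CPM. The 2 members that fell were surface proteins that stromal cells also carry: Vcam1 went from 324, 251 and 187 CPM to 18.6, 50.01 and 32.4 CPM and Cd34 from 95.9, 101 and 30.3 CPM to 6.92, 10.9 and 6.91 CPM. The groups overlapped for none of these 5 genes. The summed level of the list was 1788, 1722 and 2044 CPM with MyoD and 9176, 9475 and 11547 CPM with F/R/C.

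Fusion and adhesion genes went both ways. Of 16 tested, 6 rose and 4 fell, with a median log2 fold change of 0.42, which was 0.83 with the replicate block, 0.24 with the total count as the only scaling and 0.07 without MyoD replicate 1. Mymk, the membrane protein myomaker that drives fusion, was at 22.2, 31.8 and 67.2 CPM with MyoD and 544, 501 and 966 CPM with F/R/C (adjusted p = 0.0346, named after its values were seen). Cdh15, muscle cadherin, went from 7.43, 8.27 and 34.9 CPM to 623, 440.4 and 628 CPM, and Cav3, muscle caveolin, from 16.7, 10.6 and 27.8 CPM to 106, 148 and 393 CPM. Jam3, a junctional adhesion molecule, and Itgb1bp2, the integrin-binding protein melusin, rose by 1.76 ± 0.24 and 4.78 ± 1.12 on the log2 scale. The falls were in Kirrel and Kirrel3, adhesion proteins of the nephrin family, and in Dock1 and Dock5, activators of Rac. Kirrel3 was at 12.8, 5.78 and 35.6 CPM with MyoD and 0.420, 0.274 and 0.528 CPM with F/R/C. Only 3 members were called higher without MyoD replicate 1 or without MyoD replicate 2, and the call of Mymk was lost without any 1 of the 6 libraries other than MyoD replicate 3.

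Genes of the contractile apparatus were higher in nearly every case, though the number called depended on single libraries. Of 44 sarcomere genes tested, 27 rose and 1 fell. The median log2 fold change was 4.06, and in 41 of 44 the F/R/C libraries all lay above the MyoD libraries. Tpm2, a tropomyosin, was at 260.3, 299 and 604 CPM with MyoD and 2892, 2711 and 4772 CPM with F/R/C. Mybpc2, fast myosin-binding protein C, went from 2.10, 1.59 and 2.84 CPM to 55.4, 55.3 and 41.0 CPM, and Myoz1, a Z-disc protein of fast fibres, from 4.16, 2.53 and 7.79 CPM to 208, 195 and 266 CPM. In these 3 genes every F/R/C library was above every MyoD library. Tcap, the titin cap, rose by 3.64 ± 0.61 and Tnnt3, fast troponin T, by 3.96 ± 1.07 on the log2 scale. Mylpf, the fast myosin regulatory light chain, was at 121, 146 and 318 CPM with MyoD and 2252, 2483 and 4671 CPM with F/R/C but did not pass (adjusted p = 0.0789, and 0.0313 with the replicate block). The one member that fell was Tpm3, a tropomyosin of slow fibres with forms in non-muscle cells, from 333, 325 and 421 CPM to 184, 132 and 136 CPM.

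The summed level of the sarcomere list was 4757 ± 2768 CPM with MyoD and 74924 ± 16352 CPM with F/R/C (mean ± SD, n = 3). By library it was 1378, 1352 and 3216 CPM in untreated MEFs, 2899.6, 3433 and 7939 CPM with MyoD and 63980.3, 67072 and 93721 CPM with F/R/C, so that replicate 3 was the highest in each group. The number of members called higher was 42 without MEF replicate 3, 40 with the replicate block and 41 in a fit of the 6 libraries alone. It was 7 without MyoD replicate 1, 6 without MyoD replicate 2, and 13, 11 and 10 without F/R/C replicates 1, 2 and 3.

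Calls among genes that couple excitation to contraction were rises with 1 exception. Of 24 genes tested, 13 rose and 1 fell, with a median log2 fold change of 3.61. Bin1, which shapes the transverse tubules, was at 153, 125 and 189 CPM with MyoD and 1009, 982 and 1752 CPM with F/R/C. Cacnb1, a subunit of the voltage-gated calcium channel, went from 23.9, 28.6 and 38.2 CPM to 198, 201 and 237 CPM, and Stac3, which links that channel to the release channel, from 3.80, 5.36 and 8.61 CPM to 77.1, 89.6 and 137 CPM. None of the 3 had overlapping groups. Jph1, a junctophilin that holds the membranes together, rose by 3.31 ± 0.52. Asph, whose products include junctin and an enzyme of many tissues, fell by 0.57 on the log2 scale (adjusted p = 0.0356), but lost the call without any 1 of the MyoD libraries and had a log2 fold change of 0.39 on counts scaled from TPM. With the replicate block 22 of the 24 were called higher, and leaving out 1 library gave 9 (without MyoD replicate 2 or F/R/C replicate 3) to 20 (without MEF replicate 3).

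At the neuromuscular junction 12 of 14 genes tested rose and 1 fell, and the median log2 fold change was 3.33. Ufsp1, a protease acting on the UFM1 modifier, whose gene neighbours that of acetylcholinesterase, was at 5.82, 5.14 and 7.02 CPM with MyoD and 25.9, 23.0 and 23.2 CPM with F/R/C. Ache, acetylcholinesterase itself, went from 6.62, 6.12 and 9.33 CPM to 105, 122 and 73.2 CPM. Dok7 and Lrp4, which act with the kinase MuSK to gather acetylcholine receptors, rose by 4.17 ± 0.86 and 1.78 ± 0.32 on the log2 scale. The member that fell was Etv4, an ETS factor downstream of fibroblast growth factors, from 45.2, 32.3 and 27.9 CPM to 11.9, 12.6 and 9.70 CPM. Only 7 were called higher without MyoD replicate 1, 4 without MyoD replicate 2 and 7 without F/R/C replicate 3.

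The dystrophin-associated complex links the actin cytoskeleton to the matrix and is disturbed in the Dmdmdx genotype that all libraries share. Of 23 genes tested, 10 rose and 1 fell, and the median log2 fold change was 1.16. Sgca, alpha-sarcoglycan, was at 12.3, 9.21 and 12.99 CPM with MyoD and 56.0, 53.2 and 77.9 CPM with F/R/C. Dtna, alpha-dystrobrevin, went from 9.26, 11.2 and 20.9 CPM to 121, 170.3 and 172 CPM, while Sspn, sarcospan, rose by 1.16 ± 0.20 on the log2 scale. Dmd itself was at 23.9, 4.57 and 17.6 CPM with MyoD and 19.1, 17.6 and 18.6 CPM with F/R/C, with overlapping groups and an adjusted p of 0.805. The number of members called lower was 4 with the replicate block.

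Calls among genes of muscle energy metabolism were rises. Of 21 tested, 13 rose and none fell (0 also by DESeq2 and at an unadjusted p under 0.05 in edgeR, and 1 without MyoD replicate 1), with a median log2 fold change of 3.69. Pfkm, muscle phosphofructokinase, was at 82.1, 83.3 and 85.0 CPM with MyoD and 392, 541 and 506 CPM with F/R/C, and Aldoa, aldolase, at 598, 580.4 and 912 CPM and 4075, 4472 and 5765 CPM. Pygm, muscle glycogen phosphorylase, and Slc2a4, the insulin-responsive glucose transporter, rose by 4.10 ± 0.72 and 3.97 ± 0.70 on the log2 scale. Ckm, muscle creatine kinase, went from 6.36, 1.89 and 8.56 CPM to 166, 192 and 113 CPM. All 13 mitochondrially encoded genes had positive log2 fold changes, with a median of 1.16, and 8 of them passed the test; none fell by edgeR, by DESeq2 or at an unadjusted p under 0.05. Among these, mt-Co2, a subunit of cytochrome oxidase, was at 887, 869 and 1010.1 CPM with MyoD and 3179, 1523 and 3761 CPM with F/R/C, and mt-Nd1, a subunit of complex I, at 708, 595 and 722 CPM and 1951, 1094 and 1957 CPM. F/R/C replicate 2 had the lowest values of its group for both genes. Of the mitochondrial genes, 12 were called higher with the replicate block, and 3 to 11 without 1 library, the fewest without MyoD replicate 2.

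**Figure D3:**
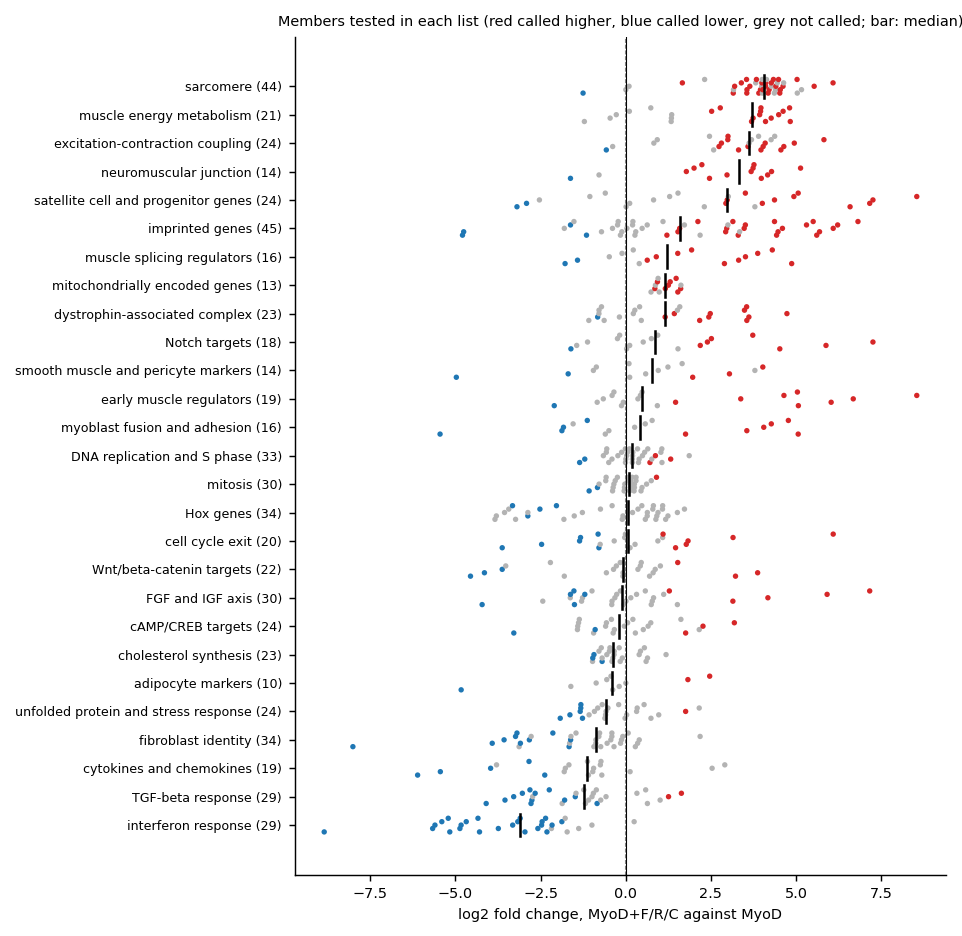
Log2 fold change with F/R/C against MyoD (horizontal axis) for each tested member of the 27 lists with 10 or more tested members, ordered by median, with the number tested in brackets. Red points are members called higher, blue points members called lower, grey points members not called, and black bars list medians. The sarcomere list has the highest median, 4.06, and the interferon list the lowest, -3.10, against -0.02 for all genes (dashed line).

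Calls among fibroblast genes were falls. Of 34 genes of fibroblast identity tested, none rose and 10 fell, and the median log2 fold change was -0.88. No member rose by DESeq2 or at an unadjusted p under 0.05 in edgeR either, and the replicate block called 1 higher. Without MyoD replicate 1 the median was -0.44, with 1 member called higher. Ly6a, a surface antigen of stromal cells, was at 481, 582 and 795 CPM with MyoD and 36.4, 60.1 and 26.1 CPM with F/R/C. S100a4, a calcium-binding protein of fibroblasts, went from 524, 316 and 639 CPM to 98.4, 41.4 and 33.5 CPM, and Fbln5, an elastic fibre protein, from 122, 83.5 and 339.9 CPM to 19.1, 19.7 and 7.01 CPM. Fn1, fibronectin, stood at 3057, 1092 and 13448 CPM with MyoD and 952, 882 and 639 CPM with F/R/C (adjusted p = 0.0375). Its MyoD libraries differed more than 10-fold, replicate 2 was only just above the F/R/C range, and the call was lost with the replicate block (adjusted p = 0.0730) and without MyoD replicate 3 (adjusted p = 0.126). Of the collagens of the fibroblast matrix, Col1a2 went from 4986, 2149 and 3286 CPM to 1264, 1234 and 896 CPM (adjusted p = 0.0402), and Col1a1 was at 9581, 2720.4 and 2030.3 CPM and 2006, 1643 and 1557 CPM and did not pass (adjusted p = 0.183). Dcn, the fibroblast proteoglycan decorin, went against the list, at 127, 22.5 and 10.2 CPM with MyoD and 251, 368 and 105 CPM with F/R/C (adjusted p = 0.160, and 0.0186 with the replicate block).

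Genes that respond to TGF-beta, the first of the pathways the mixture may address, were called lower more often than higher. Of 29 tested, 12 fell and 2 rose, and the median log2 fold change was -1.23. Ltbp2, a latent TGF-beta binding protein, was at 542, 874 and 739 CPM with MyoD and 36.8, 62.4 and 26.6 CPM with F/R/C. The metalloproteinase inhibitors Timp3 and Timp1 went from 1439.7, 708 and 1666 CPM to 168, 189 and 186 CPM and from 391, 248 and 636 CPM to 57.3, 61.0 and 66.9 CPM. Ski, a repressor of SMAD proteins that TGF-beta itself regulates, fell by 1.80 on the log2 scale. The members that rose were the ligand Tgfb3, from 185, 165 and 247 CPM to 396, 440.1 and 593 CPM, and Loxl2, a collagen crosslinking enzyme. The summed level was 21192, 11943 and 31299 CPM with MyoD and 6741, 7538 and 5874 CPM with F/R/C, with no overlap between the groups. With the replicate block 4 members were called higher, and without F/R/C replicate 3 the number called lower was 7. Fibroblast markers moved in the same direction as these genes, and their part in the TGF-beta list was not tested.

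Calls among members of the Wnt and cyclic AMP target lists showed no common direction. These lists also hold components of the pathways, Porcn and Crtc1 among those called, so targets here means list members. Of 22 Wnt/beta-catenin targets tested, 3 rose and 3 fell, and the median log2 fold change was -0.08. Lgr6, an R-spondin receptor, was at 12.8, 10.5 and 16.8 CPM with MyoD and 0.839, 0.547 and 0.288 CPM with F/R/C. Ccnd1, cyclin D1, went from 589.9, 641 and 2218 CPM to 123, 83.6 and 72.5 CPM, and Dkk2, a secreted Wnt antagonist, from 735, 599 and 373 CPM to 47.0, 43.6 and 5.62 CPM. Nkd1, an inducible antagonist, Tnfrsf19, and Porcn, which acylates Wnt proteins, were higher, Porcn at 51.2, 31.5 and 39.9 CPM against 12.1, 19.4 and 11.1 CPM. The summed level of the Wnt list, which includes Ccnd1 and Dkk2, was lower with F/R/C without overlap. It was 1763, 1584 and 3082 CPM with MyoD and 711, 724 and 473 CPM with F/R/C. Of 24 cAMP/CREB targets tested, 3 rose and 2 fell, with a median of -0.19. Sik1, a kinase induced by cyclic AMP, rose from 26.5, 48.5 and 58.7 CPM to 381, 459 and 379 CPM, together with the phosphodiesterases Pde4b and Pde4d that degrade cyclic AMP. Bdnf, a neurotrophin, went from 29.8, 83.4 and 204 CPM to 11.2, 14.9 and 6.39 CPM, and Crtc1, a coactivator of CREB, fell by 0.90 on the log2 scale (adjusted p = 0.0454). With the replicate block 6 cAMP/CREB targets were called higher, and the list medians became 0.24 for Wnt and 0.35 for cAMP/CREB, so that both signs turned. Only 1 cAMP/CREB target was called higher without MyoD replicate 1, MyoD replicate 2 or F/R/C replicate 2, and none was called lower without F/R/C replicate 1 or 3. Leaving out 1 library moved the medians between -0.28 and 0.20 for Wnt and between -0.47 and 0.44 for cAMP/CREB. Without MEF replicate 3 and MyoD replicate 3 together, 7 Wnt targets were called higher and 3 lower.

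Notch genes were more often higher than lower. Of 18 tested, 7 rose and 1 fell, and the median log2 fold change was 0.85. The ligands came up together: Jag2 went from 4.21, 10.05 and 12.2 CPM to 107, 133 and 111 CPM, and Dll1 from 0.627, 2.49 and 0.289 CPM to 32.1, 27.6 and 19.97 CPM, while Dll4 rose as well. Mfng, a glycosyltransferase that modifies Notch receptors, was at 0.224, 0 and 0.144 CPM with MyoD and 4.20, 7.93 and 9.84 CPM with F/R/C. Among the effectors Heyl and Hes6 rose, and Dtx4, a ubiquitin ligase of the pathway, rose too. The receptor Notch2 went the other way, from 135, 90.7 and 144 CPM to 56.9, 40.4 and 23.6 CPM (log2 fold change -1.61 ± 0.33). The replicate block called 2 members lower, and the median was 1.32 without F/R/C replicate 2.

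Genes of growth factor signalling were called in each direction about as often as all genes tested. Of 30 genes of the FGF and IGF axis tested, 5 rose and 5 fell, against 17.8% and 16.1% of all genes. The median log2 fold change was -0.10. The receptors diverged, with Fgfr4 up as described, Fgfr1 down from 448, 393 and 481 CPM to 202, 228 and 144 CPM, and Fgfr2 also lower. Among ligands Igf2, Fgf9 and Fgf21 rose, while Fgf2, the basic fibroblast growth factor that keeps myoblasts dividing in culture, went from 251, 293 and 313 CPM to 13.6, 28.6 and 3.79 CPM. Irs1, an adaptor of the insulin and IGF receptors, rose, and Igfbp4, a secreted IGF-binding protein, went from 2165, 2245 and 1421 CPM to 533, 1004 and 492 CPM.

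Imprinted genes, which are expressed from 1 parental allele and include growth regulators of the fetus, were often higher. Of 45 tested, 21 rose and 4 fell, and the median log2 fold change was 1.58. Besides H19, Igf2, Cdkn1c, Peg3, Rtl1 and Magel2, the rises included Mirg, a microRNA host transcript of the cluster that also holds Rtl1, from 6.18, 8.50 and 10.5 CPM to 238, 144 and 231 CPM. Peg10, a retrotransposon-derived gene, went from 127, 40.9 and 79.9 CPM to 1629, 2519.7 and 1199.9 CPM. The falls were in Slc22a18, Sfmbt2, Peg13 and Blcap. Slc22a18, a transporter gene that lies in the imprinted region of Cdkn1c, went from 9.04, 18.6 and 12.8 CPM to 0.420, 0.638 and 0.384 CPM. The summed level of the list was 8135, 8851 and 7918 CPM with MyoD, 8980.3, 10298 and 9624 CPM in untreated MEFs and 48532, 54598 and 56929 CPM with F/R/C. Every F/R/C library was thus more than 4 times above every other library. The neighbours H19 and Igf2 held most of this sum with F/R/C. H19 was at 18239, 24636 and 27390 CPM there and Igf2 at 13736, 14147 and 14718 CPM. Leaving out 1 library at a time left 17 to 22 members called higher.

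Cell cycle genes showed few calls, where 17.8% of all genes tested were called higher and 16.1% lower. Of 33 genes of DNA replication and S phase 3 rose and 2 fell, of 30 genes of mitosis 1 rose and 2 fell, and the list medians were 0.19 and 0.09. By DESeq2, 6 of the replication genes were called higher. Cdt1, a licensing factor, rose from 7.56, 8.42 and 7.84 CPM to 18.7, 19.4 and 21.5 CPM. Rrm1, a ribonucleotide reductase subunit, and Pola2, a DNA polymerase subunit, rose by 0.71 ± 0.21 and 0.87 ± 0.28, but neither passed with the total count as the only scaling. E2f1, which activates S phase genes, fell by 1.35 on the log2 scale from 52.6, 50.04 and 49.4 CPM. Ube2c, a ubiquitin carrier of the anaphase complex, rose by 0.90 ± 0.25 and Anln, a cytokinesis scaffold, fell by 1.08; Ube2c did not pass with the total count as the only scaling and Anln did not pass without MyoD replicate 3.

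Regulators of cell cycle exit divided evenly, with 6 rises and 6 falls among 20 tested and a median of 0.06. Apart from Cdkn1c, the inhibitors Cdkn2d and Cdkn1a rose, Cdkn2d from 13.1, 15.6 and 11.1 CPM to 25.4, 42.0 and 42.5 CPM, as did Rb1, the retinoblastoma gene. Gadd45a, a growth arrest gene, went from 26.6, 32.4 and 42.8 CPM to 248, 257 and 399 CPM. The D cyclins moved apart: Ccnd3, which persists in differentiating muscle, went from 393, 417 and 270.2 CPM to 988, 1343 and 1371 CPM, whereas Ccnd1, described above, and Ccnd2 fell. Cdkn2b, an inhibitor gene induced by TGF-beta, Rbl2, Mdm2 and Trp53inp1 were the other falls. With the total count as the only scaling the medians of the mitosis and exit lists turned negative, at -0.09 and -0.12, and without F/R/C replicate 1 or 3 only 3 exit genes were called lower.

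Of the lists examined, the interferon response had the largest share of falls. Of 29 tested, 23 fell, none rose (0 also by DESeq2 and at an unadjusted p under 0.05 in edgeR), and the median log2 fold change was -3.10. In all 23 the F/R/C libraries lay below the MyoD libraries, but nearly all genes called lacked overlap. Oas2, an RNA-sensing synthetase, had 0 counts in every F/R/C library, which allows a log2 change of at most -5.95 against the limit of 3 counts over the group; set to that bound it left the median as it was. Irf9, a transcription factor of interferon signalling, went from 37.2, 72.1 and 38.8 CPM to 10.9, 12.03 and 6.87 CPM. Ddx58, the RNA sensor RIG-I, went from 45.2, 118 and 73.7 CPM to 10.6, 14.0 and 5.76 CPM, and Ifit3, an antiviral effector, from 16.6, 107 and 28.1 CPM to 2.10, 1.82 and 1.25 CPM. MyoD replicate 2 was the highest library for each of these 3. The summed level was 1109, 1695 and 3105 CPM in untreated MEFs, 1065, 3284 and 2534 CPM with MyoD and 348, 572 and 326 CPM with F/R/C, so the F/R/C libraries were also below every untreated library. Leaving out 1 library at a time left 17 to 26 members called lower.

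Fewer of the secreted immune factors were called. Of 19 cytokines and chemokines tested, 5 fell and none rose, with a median log2 fold change of -1.12 (DESeq2, the replicate block and an unadjusted p under 0.05 in edgeR each gave 1 member higher). Cxcl12, the stromal chemokine that attracts progenitor cells, went from 1351, 1145 and 260.1 CPM to 13.3, 32.1 and 17.9 CPM, where MyoD replicate 3 was the lowest of its group. Cx3cl1, fractalkine, went from 482, 574 and 264 CPM to 21.2, 43.0 and 20.1 CPM, Csf1, the macrophage growth factor, from 389, 279 and 804 CPM to 48.3, 102 and 55.0 CPM, and Cxcl14 fell by 2.38 on the log2 scale.

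**Figure D4:**
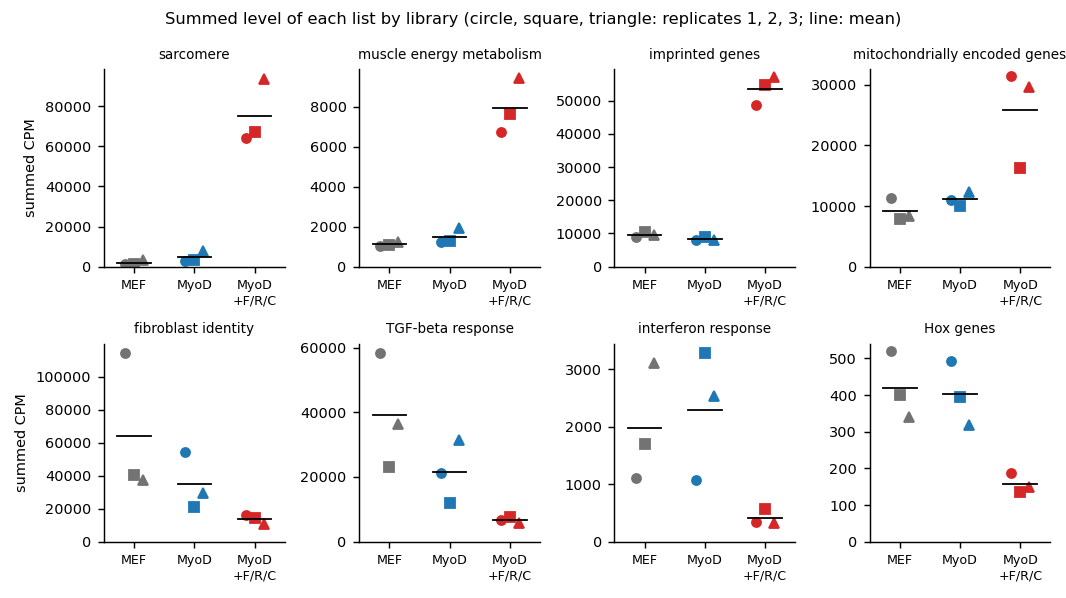
Summed CPM (vertical axis, from 0, a separate scale for each list) of 8 lists in the 3 untreated MEF libraries (grey), the 3 MyoD libraries (blue) and the 3 F/R/C libraries (red), with symbols for replicate numbers and lines for group means. The F/R/C libraries lie above all others for the sarcomere, energy metabolism, imprinted and mitochondrially encoded lists and below all others for the fibroblast, TGF-beta, interferon and Hox lists.

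Calls among stress genes were mainly falls, where 16.1% of all genes tested were called lower and 17.8% higher. The share of cholesterol synthesis genes called lower was not above that of all genes. Of 23 cholesterol synthesis genes tested, 3 fell and none rose, with a median of -0.38 (DESeq2 called 2 higher and the replicate block 1, and 3 were higher at an unadjusted p under 0.05 in edgeR). Fdft1, squalene synthase, went from 76.9, 81.1 and 86.2 CPM to 42.5, 44.7 and 40.7 CPM, and Msmo1, a sterol oxidase, fell by 0.97. Of 24 genes of the unfolded protein and stress response 6 fell and 1 rose. Pdia4, a chaperone of the endoplasmic reticulum, fell by 1.64 and Sesn2, a stress-induced regulator of mTOR, by 1.32 on the log2 scale. Asns, asparagine synthetase, was the one that rose, from 32.6, 31.2 and 78.6 CPM to 133, 136 and 212 CPM. With the total count as the only scaling 6 cholesterol genes and 10 stress genes were called lower, and without F/R/C replicate 1, 2 or 3 the stress genes called lower were 2.

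Hox genes, which record the position of a cell along the body and limb, differed between replicate numbers as well as between groups. Of 34 tested, 4 fell and none rose (0 also by DESeq2 and at an unadjusted p under 0.05 in edgeR), and the median log2 fold change was 0.06, or -0.07 with the total count as the only scaling. Hoxa9 was at 13.2, 40.0 and 15.3 CPM with MyoD and 6.67, 3.46 and 1.78 CPM with F/R/C (adjusted p = 0.0136). Hoxd13, a gene of the distal limb named here after its values were seen, was at 186, 114 and 5.86 CPM in untreated MEFs, 198, 116 and 11.5 CPM with MyoD and 20.7, 8.93 and 0.432 CPM with F/R/C. Replicate 3 was the lowest and replicate 1 the highest in each group. Hoxd13 did not pass without the block (adjusted p = 0.109) and did with it (log2 fold change -3.80, adjusted p = 0.000437). Leaving out 1 library gave 2 (without F/R/C replicate 2) to 9 (without MEF replicate 3) members lower and a median between -0.50 (without MyoD replicate 1) and 1.26 (without MyoD replicate 3). With the replicate block 10 Hox genes were called lower and 2 higher, with a median of 0.95, and without MEF replicate 3 and MyoD replicate 3 the counts were 9 lower and 10 higher.

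Summed markers of macrophages, endothelial and epithelial cells and heart reached at most 55.6 CPM, for heart in MyoD replicate 3, in any MyoD or F/R/C library. Of 5 macrophage markers tested out of 12, 1 rose: Fcer1g, at 0.761, 0.793 and 2.12 CPM with MyoD and 4.41, 7.34 and 30.9 CPM with F/R/C. The summed macrophage level was 19.3, 10.2 and 33.1 CPM with MyoD and 17.1, 27.7 and 38.7 CPM with F/R/C, with overlapping groups. Summed endothelial markers were at 8.32, 9.82 and 8.80 CPM with MyoD and 13.4, 19.3 and 13.8 CPM with F/R/C, without overlap. Of 5 endothelial markers tested Vwf rose to 6.87 to 10.4 CPM and Tek went from 0.761, 0.982 and 1.01 CPM to 0 to 0.0960 CPM and was called lower. Summed epithelial markers were at 2.51, 4.003 and 14.0 CPM and 16.2, 12.6 and 18.5 CPM and overlapped, with Cdh1 at 1.51 to 3.10 CPM with F/R/C and Krt5 and Krt14 at 0 counts in all 6 libraries. Of 4 epithelial markers tested Cdh1 and Krt8 rose, Krt8 to 0.588 to 1.01 CPM. Of 10 adipocyte markers Plin4 fell from 79.7, 64.6 and 5.05 CPM to 0.288 to 3.37 CPM and 2 rose, Lpl and Cd36, a fatty acid transporter that muscle shares, the latter from 19.4, 17.98 and 24.3 CPM to 111, 107 and 122 CPM. Heart markers summed to 20.01, 15.9 and 55.6 CPM and 12.8, 18.4 and 14.6 CPM, and Myh6, cardiac myosin, was at 4.99, 5.42 and 2.54 CPM with F/R/C. Of 7 heart markers tested Myh6 and Nppb rose and Hand2 fell, Nppb to 2.43 to 5.20 CPM and Hand2 from 14.5, 2.45 and 24.1 CPM to 1.26 to 1.46 CPM. The calls of Krt8, Plin4 and Nppb were lost without F/R/C replicate 3 and without at least 1 other single library. Of 2 pluripotency markers tested Sox2 fell and Esrrb rose, and Zfp42, Dppa3 and Utf1 had 0 counts in all 6 libraries. Among neural markers 2 of 8 fell and none rose, 1 at an unadjusted p under 0.05: Stmn2 went from 134, 269.5 and 33.8 CPM to 9.48, 9.98 and 4.61 CPM, against summed neural levels of 214, 374 and 81.4 CPM and 62.2, 57.1 and 44.0 CPM.

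Of 8 cartilage and bone markers 5 fell, and their summed level was 9115, 1756 and 3714 CPM with MyoD and 1250.2, 532 and 564 CPM with F/R/C. Spp1, osteopontin, went from 8729, 1643 and 3645 CPM to 1208, 490.1 and 534 CPM, Comp, a cartilage matrix protein, from 138, 20.4 and 7.46 CPM to 2.06, 1.09 and 1.34 CPM, and Runx2, the osteoblast factor, from 52.5, 45.4 and 37.0 CPM to 18.7, 13.6 and 7.87 CPM. Smooth muscle and pericyte markers went both ways, with 3 rises and 2 falls among 14. Synpo2, an actin-bundling protein also found in skeletal Z-discs, went from 14.2, 30.2 and 65.3 CPM to 521, 593 and 673 CPM, whereas Rgs5, a pericyte gene, went from 283, 557 and 112 CPM to 10.5, 9.85 and 9.84 CPM. Summed smooth muscle and pericyte markers were at 936, 1650.0 and 2432 CPM and 5167, 4763 and 8057 CPM. Several genes of both lists are also expressed by fibroblasts or skeletal muscle, and the part of other cell types in the results was not tested.

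Most splicing factors of muscle tested were called. Of 16 tested, 10 rose and 2 fell, and the median log2 fold change was 1.21. Qk, quaking, was at 151, 138 and 192 CPM with MyoD and 435, 527 and 425 CPM with F/R/C, Celf2 at 20.2, 23.6 and 46.1 CPM and 252, 231 and 187 CPM, and Rbfox1, which binds next to muscle exons, at 4.65, 5.97 and 9.57 CPM and 65.4, 68.1 and 67.5 CPM. Srpk3, a muscle kinase of splicing factors, rose by 3.88 ± 0.57. Ptbp1, a repressor of muscle and neural exons, went from 282, 278 and 296 CPM to 132, 112 and 76.2 CPM, and Mbnl1 was the other member that fell. Without MyoD replicate 1, and likewise without MyoD replicate 2, 5 members were called higher.

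Transcripts were tested in the same way, on 44724 transcripts, of which 1828 (4.09%) were higher and 1695 (3.79%) lower. In 50 genes, 0.327% of the 15308 with a tested transcript, 1 transcript rose while another fell. Leaving out 1 of the 6 libraries compared left 455 to 1258 transcripts higher and 587 to 1253 lower, the fewest without MyoD replicate 1, and 12 to 33 such genes. Both transcript counts fell by more than 1.5 times without any 1 of these libraries except MyoD replicate 3. Reads shared by transcripts were assigned by kallisto with an error that the files do not give, and the exons below are shown by the share of the TPM (a measure of transcripts per library, adjusted for length) of their gene that came from transcripts holding them. The 8 genes with the smallest p-values were Tpm1, Capzb, R3hdm2, Ehbp1l1, Wwp2, Fxr1, Ppp3cb and Pdlim7. Several encode proteins of the sarcomere or its calcium signalling. These shares are the basis of the calls, so they are described without a test, and with 3 libraries a group an exact permutation test could not go below 0.1.

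The following coding exons are examples. Shares of some exons not printed, such as that of Pdlim7 below, differed more than some of these. Capitals mark the exon and lower case letters the adjoining coding bases of the same transcript, 5′ to 3′, from GENCODE on GRCm38:
Tpm1-203 exon 9, chr9:67029664-67029742, minus strand: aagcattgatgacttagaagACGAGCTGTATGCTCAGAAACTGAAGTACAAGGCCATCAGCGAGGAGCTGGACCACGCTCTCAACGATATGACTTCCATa
Fxr1-201 exon 15, chr3:34064974-34065054, plus strand: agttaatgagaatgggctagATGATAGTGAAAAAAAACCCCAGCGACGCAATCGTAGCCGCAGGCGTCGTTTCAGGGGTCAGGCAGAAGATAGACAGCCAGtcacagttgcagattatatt
Ppp3cb-205 exon 13, chr14:20503247-20503276, minus strand: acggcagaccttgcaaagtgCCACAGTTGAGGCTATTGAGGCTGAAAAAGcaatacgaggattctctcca
Slc25a3-206 exon 3, chr10:91122207-91122331, minus strand: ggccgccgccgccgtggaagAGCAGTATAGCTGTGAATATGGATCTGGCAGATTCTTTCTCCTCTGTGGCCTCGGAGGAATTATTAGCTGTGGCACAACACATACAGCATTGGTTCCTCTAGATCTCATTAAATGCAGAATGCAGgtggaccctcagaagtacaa
Slc25a3-203 exon 2, chr10:91121922-91122043, minus strand: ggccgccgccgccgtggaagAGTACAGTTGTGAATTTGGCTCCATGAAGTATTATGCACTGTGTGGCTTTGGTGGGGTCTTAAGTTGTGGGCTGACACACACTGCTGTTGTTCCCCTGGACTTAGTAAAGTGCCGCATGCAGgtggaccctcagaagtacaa

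Tpm1, which encodes alpha-tropomyosin, the protein that regulates access of myosin to actin, changed the exon that encodes its carboxyl end. Transcripts holding the 79-base exon 9 of Tpm1-203 made up 19.01, 13 and 17.9 percent of Tpm1 TPM in the MyoD libraries and 84.1, 90.4 and 91.7 percent with F/R/C. Group means were 16.6% ± 3.20 and 88.7% ± 4.09 (SD, n = 3), against 3.67% ± 1.93 in untreated MEFs. Exon 2 of the same transcript, present in long tropomyosins, went from 63.7% ± 6.20 to 98.2% ± 0.340. Tpm1-203 itself was listed at 0, 0 and 0 TPM with MyoD and 184, 231 and 268 TPM with F/R/C, and Tpm1-211 at 206, 199 and 209.8 TPM and 0, 0 and 0 TPM.

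The other exons behaved alike in that the F/R/C libraries lay outside the MyoD range. Fxr1 encodes an RNA-binding protein related to FMRP, with a muscle form. Its 81-base exon 15 went from 12.9, 17.6 and 20.2 percent of TPM with MyoD to 44.9, 43.4 and 50.1 percent with F/R/C. Ppp3cb encodes a catalytic subunit of calcineurin, the calcium-dependent phosphatase, and its 30-base exon 13 went from 31.1% ± 3.03 to 64.1% ± 8.82. Slc25a3, the mitochondrial phosphate carrier, was chosen after its values were seen because its 2 alternative exons lie side by side and moved in opposite directions. The 125-base exon went from 16.8% ± 0.989 to 65.6% ± 7.495 and the 122-base exon from 42.1% ± 3.33 to 10.03% ± 1.06.

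In Pdlim7, a PDZ and LIM protein of the Z-disc and stress fibres, exon 9 of the long transcript Pdlim7-201 went from 68.5% ± 3.71 of TPM to 11.8% ± 1.45. The short transcript Pdlim7-203 was at 21.5, 20.9 and 20.6 TPM with MyoD and 116, 102 and 120.2 TPM with F/R/C. Capzb, the beta subunit of actin capping protein, held Capzb-203 at 11.98, 20.2 and 23.9 TPM and 146, 142 and 199 TPM, while Capzb-202 was at 131, 134 and 79.0 TPM and no higher than 0.000236 TPM. In Wwp2, a ubiquitin ligase, transcripts with exon 3 of Wwp2-204 went from 32.7% ± 5.61 to 77.6% ± 6.62. The total of Wwp2 was 63.3, 87.1 and 80.1 TPM with MyoD and 18.6, 14.7 and 11.6 TPM with F/R/C. The higher share was thus one of a smaller total, and the summed level of these transcripts was not higher. Wwp2-204 itself rose, from 0 counts in each MyoD library to 229, 269 and 213 counts with F/R/C. Wwp2-205 fell from 31.9, 38.2 and 45.3 TPM to 2.03, 1.00 and 1.69 TPM. For most of these exons the untreated MEFs were near the MyoD libraries, for example 14.5% ± 3.00 for Fxr1 and 76.4% ± 3.67 for Pdlim7.

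**Figure D5:**
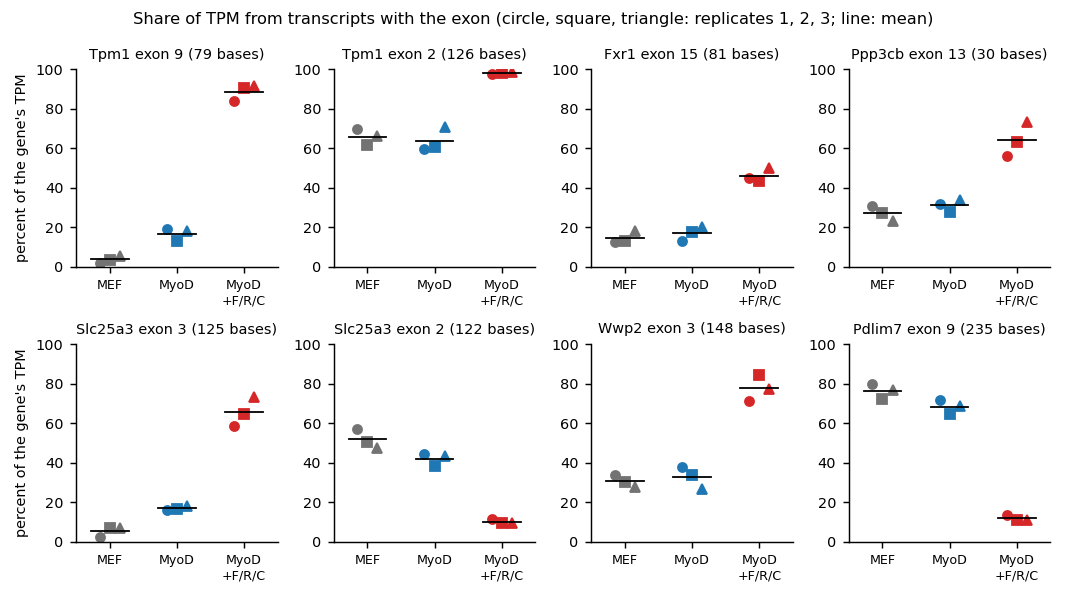
Share of the TPM of a gene that came from transcripts with a given exon (vertical axis, percent, 0 to 100) in the 3 untreated MEF libraries (grey), the 3 MyoD libraries (blue) and the 3 F/R/C libraries (red). Exons are numbered in Tpm1-203, Fxr1-201, Ppp3cb-205, Slc25a3-206 (exon 3), Slc25a3-203 (exon 2), Wwp2-204 and Pdlim7-201, symbols mark replicate numbers and lines group means. The F/R/C libraries lie above the MyoD libraries for 6 exons and below them for exon 2 of Slc25a3 and exon 9 of Pdlim7.

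Promoters were searched for 4 short motifs in windows of 300 bases, 250 before and 50 after the start, from RefSeq on GRCm38.p6. Of the genes tested, 9297 had exactly 1 promoter in that table. CAGCTG, an E-box form that MyoD binds, was in 18.8% of promoters of genes called higher, 15.8% of those called lower, 15.4% of those tested and 16.1% of all in the table. CAGGTG or its reverse complement CACCTG, another E-box form, was in 20.6%, 16.8%, 17.1% and 20.02%. TGACTCA, the AP-1 site, on either strand was in 3.38%, 4.36%, 3.47% and 5.17%. The 8-base palindromic cAMP response element was in 3.56%, 2.11%, 3.14% and 1.85%. Both strands were searched, each motif was searched separately, and no test was made of these shares. A match of these letters is a description, not a bound site. The 3 named genes of smallest adjusted p that had a CAGCTG were Fgf11 (called higher), Adgrg2 and Lgr6 (both called lower), with the motif shown in capitals in the 250 bases before their starts:
Fgf11, chr11:69802281-69802530, minus strand: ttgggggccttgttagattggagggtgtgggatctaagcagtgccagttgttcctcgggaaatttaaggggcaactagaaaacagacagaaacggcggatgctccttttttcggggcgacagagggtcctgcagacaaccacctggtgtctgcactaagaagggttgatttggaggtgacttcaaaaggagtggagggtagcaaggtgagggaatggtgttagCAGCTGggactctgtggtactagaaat
Adgrg2, chrX:160390440-160390689, plus strand: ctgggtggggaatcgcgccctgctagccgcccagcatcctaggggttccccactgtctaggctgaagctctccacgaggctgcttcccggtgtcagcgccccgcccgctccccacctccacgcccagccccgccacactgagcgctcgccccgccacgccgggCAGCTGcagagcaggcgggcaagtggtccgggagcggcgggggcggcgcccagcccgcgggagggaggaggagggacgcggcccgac
Lgr6, chr1:135105277-135105526, minus strand: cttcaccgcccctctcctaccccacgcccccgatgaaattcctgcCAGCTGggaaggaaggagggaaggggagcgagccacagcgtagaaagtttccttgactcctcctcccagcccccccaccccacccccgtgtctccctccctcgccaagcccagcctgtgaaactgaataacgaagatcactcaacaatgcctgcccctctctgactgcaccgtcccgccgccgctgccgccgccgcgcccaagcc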

How the data were processed

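Polyadenylated RNA from 9 samples labelled as MEFs was purified with RNeasy columns and DNase and made into TruSeq Stranded mRNA libraries, per the labels' protocols. The authors deposited 1 table a library with an estimated count and a TPM for each of 121843 Ensembl transcripts, per the file headers. The submitters' processing notes name bcl2fastq 2.19, Trimmomatic 0.36, kallisto 0.44, edgeR 3.28 and GRCm38.p6. The annotation release and the strand setting are not given in the sources used here, so reads of overlapping and antisense genes may be shared between them.

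Estimated counts were summed over the 121104 transcripts that GENCODE M21 assigns to 35675 genes and rounded. The other 739 transcripts held 0.204% to 0.470% of counts as group means and stayed out of the tests. Genes were kept by filterByExpr (at least 10 counts and 15 in total at its defaults), scaled by TMM and fitted in edgeR 4.0.16 (R 4.3.3) with the quasi-likelihood test, 1 mean for each of the 3 groups, contrast F/R/C minus MyoD, and Benjamini-Hochberg adjustment over the 15714 genes. A call is an adjusted p under 0.05, and an SE was derived as the size of the log2 fold change over the root of the F statistic. The script was tested on simulated data. Transcripts were tested in the same way. DESeq2 1.42.0 and the other alternatives are given with the limits below. Depth of 21112071 to 24291056 counts a library puts 3 counts at 0.113 to 0.144 CPM. 

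Equal replicate numbers were checked for pairing: the deviations of MyoD and F/R/C libraries of equal number from their group means correlated by 0.118, 0.153 and 0.172 over the 9940 genes above an average log2 CPM of 3, against -0.144 to 0.0499 for unequal numbers. Over all 15714 genes the equal numbers gave 0.0837, 0.119 and 0.164. Deviations from a group mean cancel within the group, so positive values for equal numbers draw those for unequal numbers down. The contrast between equal and unequal numbers is therefore partly fixed. The labels do not say what a number stands for. The main fit has no block, so its calls do not use this pairing. Blocked values stand beside calls of named genes that they change and other list counts that they move by more than 1.5 times. Not given there, the block called 2 early muscle regulators lower, 5 replication genes higher and 2 stress genes higher. Without the block these counts were 1, 3 and 1.

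The genes compared, the 34 gene lists and the tests were chosen with earlier results of these data known. Named were the 5 marker genes, the 12 largest rises and falls among genes averaging a log2 CPM of 3 or more whose groups did not overlap (without predicted genes and pseudogenes), the 5 smallest p in each direction, up to 5 members a list by p (4 in the main direction and 1 in the other), the 5 genes with most counts in each group, 8 genes with transcripts called in both directions of at least 1 TPM, and promoters of named genes with CAGCTG. Of the genes named, 40 fall outside this rule and were chosen after their values were seen; Myf5, Myog, Ckm, Mylpf, Tnnt3, Col1a1 and Col1a2 are markers of the cell types, and most of the rest complete counts of list members. Some list members, mainly ones not called, are not reported here.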

Additional observations from a re-analysis of the deposited data

Results flagged for a closer look

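Transcripts in the files that the annotation used here assigns to no gene held more of the counts with F/R/C, and they entered none of the comparisons. Their share was 0.470% ± 0.0270 (SD, n = 3) in the F/R/C libraries, against 0.218% ± 0.00424 in the MyoD libraries and 0.204% ± 0.00504 in untreated MEFs. The transcript ENSMUST00000238473 had 1092, 809 and 1941 counts with MyoD and 9658, 11513 and 12357 counts with F/R/C. What these transcripts encode was not analysed here.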

How the results depend on the processing

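The 2796 genes higher and 2531 lower with F/R/C became 3255 and 2976 with DESeq2, 2814 and 2467 with its size factors in edgeR, 2295 and 3119 with total counts as the only scaling, 2497 and 2310 with no filter beyond 1 count, 2325 and 2572 with an average CPM of at least 1, 2475 and 2558 in the 6 libraries alone and 2311 and 2501 on counts scaled from TPM. Leaving out 1 library gave 1778 to 2756 higher (fewest without MyoD replicate 2), 1744 to 2819 lower (fewest without F/R/C replicate 2) and 3620 to 5493 in all. For transcripts it gave 455 to 1258 higher, 587 to 1253 lower and 12 to 33 genes with both directions. Without MEF replicate 3 and MyoD replicate 3, an alternative chosen after seeing the data, 3119 genes were higher and 2777 lower.

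With the replicate block, which takes equal numbers as pairs, 3348 genes were higher and 2986 lower, 1838 transcripts higher and 1673 lower, and 40 genes had both. The block in the 6 libraries alone, added after seeing the data, gave 2232 and 2229. Among the 193 genes named, the block ended the call of Fn1 and gave one to Acta1, Myh3, Mylpf, Dcn and Hoxd13, and it changed no other of these calls. Of 183 named genes called, 35 lost the call without F/R/C replicate 3, 29 without MyoD replicate 2 and 27 without F/R/C replicate 2. Asph turned to 0.39 and Dmd, which had no call, to -0.53 on counts scaled from TPM, and Dmd spanned -0.19 (without MyoD replicate 2) to 0.73 (without MyoD replicate 1) when 1 library was left out. The cause was not tested.

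Genes at or under the limit of 3 counts, 0.113 to 0.144 CPM, in the MyoD libraries, such as Pax7 and Myf5, have levels there that depth does not resolve.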

Other observations

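Further alternative exons, chosen after their values were seen, differed in the same way as those of Tpm1. Pdlim5 encodes a Z-disc protein of the same family as Pdlim7. The 15-base exon 5 and the 18-base exon 6 of Pdlim5-205 came from 10.8% ± 4.40 and 13.1% ± 4.10 of Pdlim5 TPM with MyoD (SD, n = 3) and from 59.9% ± 3.96 and 80.5% ± 8.78 with F/R/C. Exon 9 of the long transcript Pdlim5-201 went from 75.5% ± 7.17 to 11.0% ± 4.18. R3hdm2, a gene with an RNA-binding domain, held the 54-base exon 13 of R3hdm2-202 in 7.30% ± 5.34 of its TPM with MyoD and in 23.8% ± 7.01 with F/R/C. In each of these exons the F/R/C libraries lay outside the MyoD range, and none of the shares was tested.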
